A study of Mus musculus with 4 samples.

Results

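The insulin-like growth factor (IGF) system was followed in mouse embryonic fibroblasts (MEFs) from growth into replicative senescence. The 10 genes chosen were 6 secreted IGF-binding proteins (Igfbp2 to Igfbp7), the ligand Igf1, its receptor Igf1r, and the mRNA-binding proteins Igf2bp2 and Igf2bp3. Members were all non-control probes listed under a mouse RefSeq transcript of these genes. That gave 18 of the 43553 probes on the array, for 9 of the 10 genes, out of 17466 genes that could be named. No probe was matched to Igfbp7, and it was not analysed here.

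IGF1 and IGF2 are secreted growth factors that signal through the IGF1 receptor, a tyrosine kinase that works through the insulin receptor substrates, PI3K, AKT and the RAS and MAP kinases. The binding proteins hold the ligands outside the cell, where they prolong the life of the ligands, keep them from the receptor, or release them when cut by proteases. The IGF2 mRNA-binding proteins are RNA-binding proteins of embryonic and fetal tissue, named for the IGF2 transcript that they bind, and belong to the system by name more than by signalling. In fibroblasts this system supports proliferation, and several binding proteins are found among the factors that senescent cells secrete.

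The 2 groups were growing MEFs at passage 2 and MEFs at passage 7, where replicative senescence sets in. Both were kept in DMEM with fetal bovine serum and antibiotics, and no strain, genotype or embryonic age is given in the sources used here. RNA from 3 independent cultures was pooled before expression was measured, and 2 arrays of 1 colour were hybridised per passage. Both arrays of 1 passage could thus be repeats of the same RNA, in which case the p-values measure only the spread between arrays. All 4 arrays lay on 1 slide, with the passages at different positions of it, and the effects of position and passage cannot be told apart.

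Levels are given as log2 of the background-subtracted signal relative to the array's 75th percentile, so that a difference of 1 is 2-fold. They are compared only within a probe, since probes differ in how brightly they report. The share of spots well above background ran from 65.8% to 72.7%, and no spot was saturated. All 18 member probes were well above background on all 4 arrays. All 9 matched fibroblast markers were also detected on all 4 arrays. Their summed signal was 203 and 192 times the 75th percentile at passage 2 and 226 and 322 times at passage 7. Brighter probes weigh more in that sum. Of these 9 markers, 2 fell (Pdgfra and Lum) and none rose. Among those that did not pass, Thy1 (1.07), Col1a1 (1.035) and Vim (0.84) were higher. Col3a1 (-0.06), Dcn (-0.54), Col1a2 (-0.73) and Fap (-0.80) were lower. The median change of the 9 was -0.54. The median change of all 13847 tested genes was 0.20, so changes relative to it are given where they matter. Calls required an adjusted p under 0.05 in limma together with a change of at least 2-fold. With only 2 arrays per passage, the passages can lie apart at unchanged probes too. The share of such probes on the whole array was not counted, so non-overlap describes the values and made no call. In these bulk samples, fewer cells of a type and less RNA per cell cannot be told apart.

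Of the 9 member genes measured, 1 rose and 4 fell from passage 2 to passage 7, and 4 did not pass. Among all tested genes, 9.99% rose and 9.42% fell, that is 1384 against 1305. That split was 1237 against 1767 after median scaling and 732 against 1340 by the authors' value table. Igfbp2 rose 3.24-fold. Igf1, Igfbp3, Igfbp4 and Igfbp5 fell and were 2.01- to 3.63-fold lower. Igf1r, Igfbp6 and Igf2bp2 had changes from -0.06 to 0.11, and Igf2bp3 was 1.94-fold lower, short of the 2-fold minimum. By probe, 1 of 18 rose and 5 fell, beside 9.76% and 10.8% of 24834 named probes. The number of falls moved with the arrays used: it was 1 when either passage 7 array was left out, 2 when passage 2 replicate 2 was left out and 5 when passage 2 replicate 1 was left out, while Igfbp2 rose in each of these. After the normexp background correction limma called 0 members and 0 genes in all, with 2 members and 664 genes at an unadjusted p under 0.05.

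**Figure D1:**
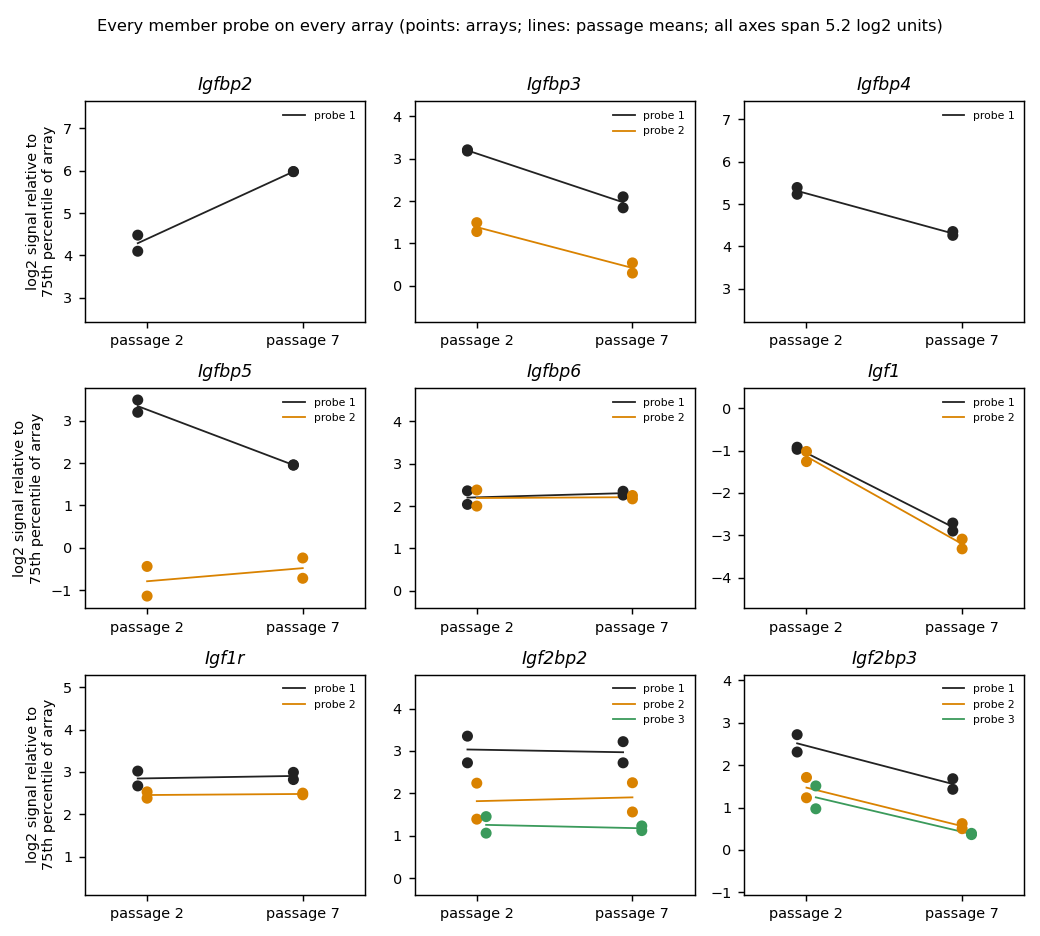
Log2 signal relative to the array's 75th percentile for every member probe (colours number the probes of a gene), with 1 point per array and lines joining the passage means. Passage 7 lies above passage 2 for Igfbp2 and below it for Igf1, Igfbp3, Igfbp4, Igf2bp3 and probe 1 of Igfbp5, and the passages overlap in the other panels. With 2 arrays per passage, the passages can lie apart at unchanged probes too. Heights are not comparable between probes.

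The ligand fell. Igf1, which encodes the secreted growth factor that activates the IGF1 receptor, was at -0.97 and -0.92 on the passage 2 arrays and at -2.71 and -2.90 on the passage 7 arrays. The passages did not overlap, and both passage 7 arrays were low. The change was -1.86 ± 0.18 (SE), or 3.63-fold lower (limma, adjusted p = 0.0072). The other probe of the gene read -1.02 and -1.26 at passage 2 and -3.09 and -3.32 at passage 7, a change of -2.06 ± 0.20 (limma over probes, adjusted p = 0.0055). The fall was called at both probes. Without any 1 array the change of the gene lay between -1.95 and -1.77 and was still called, while it was -0.62 and not called after the normexp background correction. The Igf1 probes were the dimmest of the member probes at passage 7, with background-subtracted signals of 147 and 54 at the brighter one. The normexp correction used an offset of 50. The rank of Igf1 among the members turned with the background correction: with normexp and quantile normalisation together, Igf1 was at -1.30 and Igfbp5 at -1.59. Both probes are listed under 1 transcript accession, so the start sites and splice forms of Igf1 were not told apart.

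Igf2, the fetal ligand of the same receptor, is no member of the set and was examined as part of the pathway. It stood at 6.85 and 6.51 at passage 2 and at 5.41 and 5.63 at passage 7, lower on both passage 7 arrays. Its change was -1.16 ± 0.22 (2.24-fold lower, adjusted p = 0.025), and its other probe changed by -1.13. The call of Igf2 was lost when passage 2 replicate 1 was left out, with a change of -0.99, and when either passage 7 array was (adjusted p = 0.13 and 0.093). Within each array, the log2 difference of Igf1 from Igf2, from which a single scaling factor per array cancels, was -7.82 and -7.43 at passage 2 and -8.12 and -8.52 at passage 7, a shift of -0.70. No test of that shift was run, and the order of Igf1 and Igf2 turned after the normexp background correction, at -0.62 and -1.65.

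Macrophages also make IGF1. Of 6 tested macrophage markers none rose, 2 fell and 4 did not pass, beside 9.99% rises and 9.42% falls among all tested genes. Those 4 were Cd14 at -0.02 (limma, adjusted p = 0.95), Itgam at -0.73 (0.052), Aif1 at -0.75 (0.12) and Tyrobp at -0.83 (0.051). Itgam and Aif1 were well above background on only 1 passage 7 array. The median change of the 6 was -0.79, against 0.20 for all genes. The 2 that fell were Csf1r, the receptor of the macrophage growth factor, with a change of -1.26 ± 0.25 (adjusted p = 0.028), and Adgre1, which encodes a macrophage surface receptor, with -2.15 ± 0.27 (adjusted p = 0.012). Adgre1 was dim, and only 1 passage 7 array had it well above background. Its change was -1.47 by the authors' value table. With normexp and quantile normalisation together it was -0.83 and not called, and with normexp alone it was 0.78. The call of Csf1r was lost on dropping passage 2 replicate 1, passage 2 replicate 2 or passage 7 replicate 1 (adjusted p = 0.067, 0.082 and 0.13) and without the filter on dim probes (0.064). The summed signal of the 7 matched markers was 2.28 and 2.10 times the 75th percentile at passage 2 and 1.0 and 1.21 times at passage 7. Brighter probes weigh more in that sum, and the probe of Csf1r was the brightest, at 0.51 and 0.45 at passage 2 and at -1.05 and -0.5 at passage 7. Ptprc, the leukocyte antigen CD45, was not well above background on any array. The part of these cells in the level of Igf1 was not tested.

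The receptors did not pass. Igf1r, the receptor kinase for both ligands, was at 2.67 and 3.02 at passage 2 and at 2.82 and 2.99 at passage 7. The arrays of the 2 passages overlapped, and the change was 0.06 ± 0.21 (adjusted p = 0.85, 95% interval -0.50 to 0.62). A change of 2-fold in either direction lies outside that interval, which covers the spread between arrays only. Its second probe changed by 0.03 ± 0.18. The sign of the small value depends on scaling, being -0.21 after quantile normalisation, -0.11 after median scaling and -0.24 by the authors' value table. Within each array, Igf1 stood lower against Igf1r at passage 7, by 1.92 log2 units on average, with differences of -3.64 and -3.94 at passage 2 and -5.53 and -5.89 at passage 7. Neither Igf2r, the mannose 6-phosphate receptor that takes up IGF2 for degradation (0.40 ± 0.25, adjusted p = 0.28), nor Insr, the insulin receptor (0.09 ± 0.24, adjusted p = 0.81, from 3 arrays because 1 passage 7 spot was marked as an outlier), passed. The value of Igf2r was -0.19 with quantile normalisation, and that of Insr was -0.20 after median scaling and -0.13 by the authors' value table.

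Among the binding proteins, Igfbp2 went the other way from the brighter of the 2 probes of Igfbp5, its neighbour on chromosome 1. The dimmer Igfbp5 probe changed by 0.31 ± 0.32 and was not called. In the RefSeq annotation of GRCm38.p6 no other gene is listed between Igfbp2 and Igfbp5, and they lie on opposite strands. The 250 bases before an annotated start of each gene are shown, for Igfbp2 the upstream one of 2 listed. They are shown because these adjacent genes of 1 family were called in opposite directions, for Igfbp5 at the brighter probe only. Both are RefSeq sequence of build GRCm38.p6, 5′ to 3′ on the gene's own strand, for Igfbp2 chr1:72824230-72824479 on the plus strand and for Igfbp5 chr1:72874866-72875115 on the minus strand. Capitals mark every match to the motifs searched.
Igfbp2: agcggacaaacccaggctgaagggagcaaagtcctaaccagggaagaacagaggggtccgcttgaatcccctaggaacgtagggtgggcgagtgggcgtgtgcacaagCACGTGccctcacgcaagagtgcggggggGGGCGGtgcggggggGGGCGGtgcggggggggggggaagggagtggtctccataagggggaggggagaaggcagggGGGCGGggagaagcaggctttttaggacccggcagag
Igfbp5: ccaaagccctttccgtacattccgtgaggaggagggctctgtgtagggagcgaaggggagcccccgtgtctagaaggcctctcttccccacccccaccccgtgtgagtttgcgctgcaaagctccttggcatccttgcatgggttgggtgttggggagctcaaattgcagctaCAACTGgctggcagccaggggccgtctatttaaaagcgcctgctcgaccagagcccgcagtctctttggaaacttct
Searched on both strands were the TATA box (TATAAA), the CCAAT box (CCAAT), the GC box (GGGCGG), the E-box (CANNTG), an AP-1 motif (TGANTCA) and a FOXO motif (TGTTTAC). The Igfbp2 window held 3 GC boxes and 1 E-box, and the Igfbp5 window held 1 E-box and none of the others. The window before the other listed Igfbp2 start held 1 E-box, 1 AP-1 motif and 0 GC boxes. Of 32851 windows of the same length, 32.7% held a GC box and 66.2% an E-box, beside 12.4% with the TATA box, 33.8% with the CCAAT box, 6.75% with the AP-1 motif and 3.17% with the FOXO motif. No marked matches overlapped. G and C made up 67.2% of the Igfbp2 window and 58.8% of the Igfbp5 window. These matches describe the letters only, and the arrays carry no measure of binding.

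Igfbp2 encodes a binding protein abundant in fetal tissue, and it also binds integrins through an RGD sequence. Its 1 probe stood at 4.48 and 4.10 at passage 2 and at 5.98 on both passage 7 arrays. Both passage 7 arrays were above both passage 2 arrays. The change was 1.69 ± 0.21, or 3.24-fold higher (limma, adjusted p = 0.011). Relative to the median of all genes it was 1.49. It was called without each single array, with values from 1.5 to 1.88, and was 1.16 after quantile normalisation and 1.52 by the authors' value table.

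Igfbp5 encodes a binding protein of connective tissue that also binds extracellular matrix. Its brighter probe read 3.20 and 3.49 at passage 2 and 1.96 and 1.95 at passage 7, with no overlap. The change was -1.39 ± 0.20 (2.62-fold lower, adjusted p = 0.014). The dimmer probe, listed under the same transcript, did not follow. It read -0.44 and -1.14 at passage 2 and -0.72 and -0.24 at passage 7, where the passages overlapped, and it changed by 0.31 ± 0.32 (limma over probes, adjusted p = 0.49). Averaging both probes left a change of -0.54 (adjusted p = 0.10), which was not called. The call from the brighter probe was also lost without either passage 7 array (adjusted p = 0.064 and 0.071), at changes of -1.40 and -1.39. The sources used here do not say which part of the transcript each probe reads. Within each array, the log2 difference of Igfbp2 from the brighter Igfbp5 probe was 1.27 and 0.61 at passage 2 and 4.02 and 4.03 at passage 7, a shift of 3.08 from which a single scaling factor per array cancels.

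Igfbp3 and Igfbp4 also fell. Igfbp3, the main IGF carrier in blood and a known p53 target, was at 3.18 and 3.21 at passage 2 and at 2.10 and 1.84 at passage 7. All passage 7 values were the lower ones, and the change was -1.22 ± 0.19 (2.34-fold lower, adjusted p = 0.017). The second probe read 1.28 and 1.49, then 0.54 and 0.30, and its change of -0.96 ± 0.20 stayed under 2-fold (limma over probes, adjusted p = 0.028). The call of Igfbp3 was lost when passage 2 replicate 2 was left out (adjusted p = 0.053) and when either passage 7 array was (adjusted p = 0.063 and 0.12). In the annotation its neighbour is Igfbp1, a binding protein made mainly by liver, whose probe was not well above background on any of the 4 arrays.

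Igfbp4 encodes a binding protein that blocks IGF action until it is cut by the protease PAPP-A. Its 1 probe stood at 5.23 and 5.39 at passage 2 and at 4.26 and 4.35 at passage 7, lower on both arrays. The change was -1.01 ± 0.18 (2.01-fold lower, adjusted p = 0.023), just past the 2-fold minimum. Relative to the median of all genes it was -1.21, and it was -1.52 after quantile normalisation and -1.30 by the authors' value table. The call did not hold when passage 2 replicate 2 was left out (-0.93), when either passage 7 array was (adjusted p = 0.14 and 0.13), or without the filter on dim probes (adjusted p = 0.058).

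Igfbp6, a binding protein that prefers IGF2 over IGF1, did not pass. It read 2.36 and 2.04 at passage 2 and 2.35 and 2.26 at passage 7, and its second probe 2.38 and 2.00, then 2.25 and 2.17. The passages overlapped at both probes, with changes of 0.11 ± 0.20 (adjusted p = 0.71, 95% interval -0.43 to 0.65) and 0.02 ± 0.21. The sign turned under other scalings, to -0.08 (quantile), -0.06 (median) and -0.23 (the authors' value table). Of the 5 binding proteins measured, 1 thus rose, 3 fell and 1 did not pass.

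**Figure D2:**
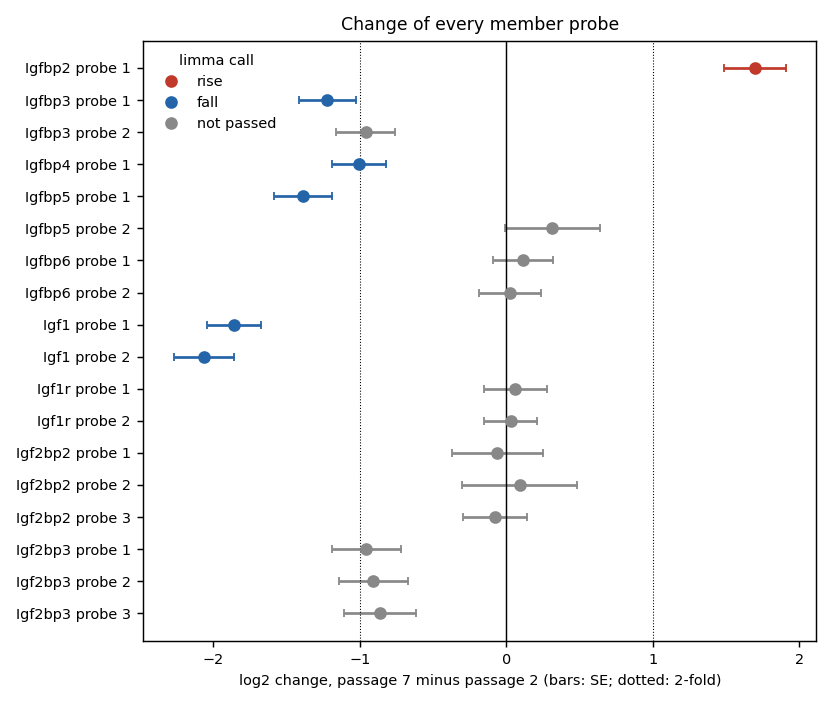
Log2 change from passage 2 to passage 7 for the 18 member probes, with SE bars and dotted lines at 2-fold (probe numbers as in the plot of every probe on every array). Probes of 1 gene lie close together except those of Igfbp5, at -1.39 and 0.31.

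The proteases that cut the binding proteins were examined with the rest of the pathway. Pappa2, which encodes a protease of IGFBP3 and IGFBP5, was at -4.13 and -3.56 at passage 2 and at -2.01 and -2.04 at passage 7. Both passage 7 arrays were higher, and the gene rose by 1.82 ± 0.25 (3.53-fold, adjusted p = 0.014), with 1.85 at its other probe. By the authors' value table Pappa2 was at 1.14, and with normexp and quantile normalisation together it was at 0.88 and not called. It was the 1 pathway gene outside the set that rose, and dropping either passage 2 array gave 2 rises. Pappa, which encodes PAPP-A, the protease of IGFBP4, was at 2.46 and 2.88, then 3.52 and 3.65, and its change of 0.92 ± 0.22 (adjusted p = 0.046) stayed under 2-fold. It was 0.60 with quantile normalisation (adjusted p = 0.14), and Pappa was singled out after its values were seen.

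The mRNA-binding proteins differed from each other. Igf2bp3, a fetal RNA-binding protein that reappears in many tumours, was at 2.31 and 2.72 at passage 2 and at 1.43 and 1.68 at passage 7. The passages did not overlap at any of its 3 probes, whose changes were -0.96, -0.91 and -0.86 with SEs of 0.23 to 0.25. The brightest gave an adjusted p of 0.046 and was 1.94-fold lower, so it was not called. Relative to the median of all genes the change was -1.16. Other scalings of Igf2bp3 gave a call: quantile (-1.15, adjusted p = 0.029), median (-1.13, adjusted p = 0.017) and the authors' value table (-1.31, adjusted p = 0.0064). Other settings did not call it: the adjusted p in limma was 0.094 without the filter on dim probes, 0.08 with the replicate block and 0.56 after normexp. The change was -1.17 without passage 2 replicate 1 and -0.75 without passage 2 replicate 2. Without passage 7 replicate 1 it was -0.83, and without passage 7 replicate 2 it was -1.08.

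Igf2bp2, which is widely expressed and linked to metabolism, read 2.72 and 3.35 at passage 2 and 2.72 and 3.22 at passage 7. The passages overlapped at all 3 probes. The changes were -0.06 ± 0.31 (adjusted p = 0.89, 95% interval -0.89 to 0.76), 0.09 ± 0.39 and -0.08 ± 0.22. Igf2bp1, the third of the family and no member of the set, changed by -0.24 ± 0.17 (adjusted p = 0.35), and its other probes by 0.28 and -0.25. The log2 difference of Igf2bp2 from Igf2bp3 within each array was 0.41 and 0.62 at passage 2 and 1.29 and 1.53 at passage 7. Only its shift between passages, 0.89, can be read, since the genes have different probes.

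**Figure D3:**
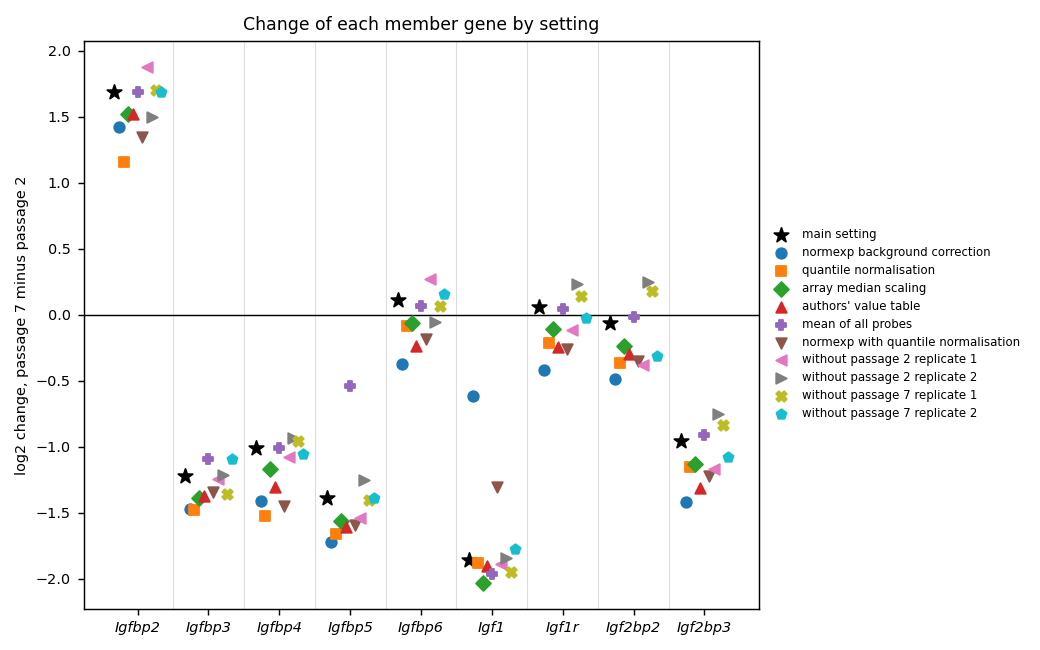
Log2 change of each member gene in the main setting (star), under other background corrections, scalings and choices of probe, and without each array. Igfbp2 lies above 0 and Igfbp3, Igfbp4, Igfbp5, Igf1 and Igf2bp3 lie below 0 under every setting drawn, while Igfbp6, Igf1r and Igf2bp2 lie near 0 and change sign between settings.

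Of the 70 other genes of the IGF pathway that were listed, 66 were matched and 58 were tested. Of these, 1 rose (Pappa2) and 9 fell, beside 9.99% rises and 9.42% falls among all tested genes. The median change was 0.16, against 0.20 for all genes. The other 8 matched genes were too dim to test, among them the insulin genes Ins1 and Ins2, the insulin receptor-related Insrr, the binding protein Igfbp1 and the transcription factor Foxo4.

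Of 16 tested receptor adaptors and inhibitors, 3 fell and none rose, beside 9.42% falls and 9.99% rises among all tested genes. Socs2, a suppressor of cytokine and growth hormone signalling, was at 0.27 and 0.49 at passage 2 and at -2.53 and -2.38 at passage 7. Both passage 7 arrays were low, and it fell by 2.84 ± 0.19 on the log2 scale (7.14-fold lower, adjusted p = 0.0052). Socs3, its relative that acts on cytokine and insulin receptors, was lower by 2.38-fold (-1.25 ± 0.18, adjusted p = 0.014). Grb10, an imprinted adaptor that restrains the IGF1 and insulin receptors, was lower by 2.01-fold (-1.0 ± 0.17, adjusted p = 0.021). Irs1, the main substrate of the IGF1 receptor, changed by -0.88 ± 0.29 (limma, adjusted p = 0.09) and was not called. It was called by the authors' value table (-1.19, adjusted p = 0.0095) and after median scaling (-1.05, adjusted p = 0.036). Quantile normalisation (-1.1, adjusted p = 0.059) and the mean of its probes (-0.82, adjusted p = 0.12) gave no call. The change of Irs1 was -1.24 without passage 2 replicate 1 and -0.52 without passage 2 replicate 2. Without passage 7 replicate 1 it was -0.84, and without passage 7 replicate 2 it was -0.92. For Irs2 no probe was matched.

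Of 16 tested genes of PI3K, AKT, FOXO and GSK3, 3 fell and none rose, beside the same shares of all tested genes (9.42% and 9.99%). Inpp5d, a lipid phosphatase mainly of blood cells, was at -2.61 and -2.32 and then at -4.29 and -3.91, lower on both arrays (-1.63 ± 0.23, adjusted p = 0.014). Inpp5d fell as the macrophage markers Csf1r and Adgre1 did. The other 4 of the 6 tested macrophage markers did not pass, with changes from -0.83 (Tyrobp) to -0.02 (Cd14). The part of macrophages in its level was not tested. Phlpp2, a phosphatase of AKT, was lower by 2.13-fold (-1.09 ± 0.18, adjusted p = 0.019). Akt1 and Akt2, which encode AKT kinases, were not called, with changes of 0.57 and 0.23.

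None of the 8 genes of TSC and mTOR passed. Grb10, Phlpp2, Akt1 and Akt2 were named after their values were seen. The 9 falls of the whole pathway list became 2 when passage 7 replicate 1 was left out, 3 when passage 7 replicate 2 was and 5 when passage 2 replicate 2 was. The calls of Socs3 (adjusted p = 0.075 and 0.092), Grb10 (0.12 and 0.15) and Phlpp2 (0.088 and 0.14) were lost on dropping passage 7 replicate 1 or replicate 2. Those of Grb10, Phlpp2 and Inpp5d were lost on dropping passage 2 replicate 2 (adjusted p = 0.054, 0.051 and 0.0502), and that of Inpp5d also on dropping passage 7 replicate 1 (0.059).

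The IGF2 mRNA-binding proteins are targets of the let-7 microRNAs, and 14 fetal genes and let-7 targets were therefore listed beside them. Of 13 tested, 5 fell, none rose and 8 did not pass, beside 9.42% falls and 9.99% rises among all tested genes. The median change was -0.74, against 0.20 for all genes, and the 8 that did not pass ran from -0.78 (Hmga2) to 0.43 (Nr6a1). The list mixes fetal genes with let-7 targets, and no median was taken for let-7 targets alone. Plagl1, an imprinted transcription factor that can activate Igf2, stood at 2.12 and 2.49 at passage 2 and at -0.22 and -0.32 at passage 7. It was far lower on both arrays, with a change of -2.58 ± 0.21 (5.97-fold lower, adjusted p = 0.0058). Mycn, a MYC family factor, fell by 2.10 ± 0.24 on the log2 scale (limma, adjusted p = 0.0097). Its probe was dim at passage 7, at -5.2 and -5.3. The change of Mycn was -1.48 by the authors' value table. With normexp and quantile normalisation together it was -0.85 and not called, and with normexp alone it was 0.62. Dlk1, an imprinted preadipocyte factor, fell by 4.51 ± 0.26 (adjusted p = 0.005). The other falls were Igf2 and Lin28b, which blocks let-7 processing and was at least 2.34-fold lower, since its probe stood above background on neither passage 7 array. Hmga2, a chromatin protein and let-7 target, changed by -0.78 ± 0.24 (limma, adjusted p = 0.079) and was not called. It was called after quantile normalisation (-1.33, adjusted p = 0.031) and by the authors' value table (-1.25, adjusted p = 0.0061). Median scaling gave -0.95, short of 2-fold. The change of Hmga2 was -0.98 without passage 2 replicate 1 and -0.59 without passage 2 replicate 2. Without passage 7 replicate 1 it was -0.60, and without passage 7 replicate 2 it was -0.96.

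The genes whose pattern over the 4 arrays was most like that of the largest rise and the largest fall in the main setting were found by the Euclidean distance between values centred on each gene's mean. Closest to Igfbp2 were Cpn1, a plasma carboxypeptidase subunit (distance 0.053), Gpx3, an extracellular glutathione peroxidase (0.054), and Msrb2, a methionine sulfoxide reductase (0.075). Closest to Igf1 were Gli1, the transcription factor of hedgehog signalling (0.044), Aoc3, an amine oxidase (0.087), and Fndc4 (0.095). With 4 arrays in 2 passages, such likeness is mainly a change of the same size.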

How the data were processed

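Per the labels' protocols, Cy3-labelled RNA was hybridised to 1-colour Agilent arrays, 2 per passage. Per the file headers, Agilent Feature Extraction 10.5.1.1 gave each spot's background-subtracted signal intensity, its median and background intensity and its flags (deposited per array). The authors' deposited value table is on a log2 scale; limma is the tool in the submitters' processing notes, and the sources used here do not state its normalisation. Probes were named by RefSeq accession without version through a GRCm38.p6 table. Here log2 of the processed intensity minus the array's 75th percentile was taken, outlier spots were left out, and a gene was read from its brightest probe, kept where both arrays of either passage flagged it as well above background. The fit was limma 3.58.1 in R 4.3.3 (lmFit, eBayes, all 4 arrays, no covariate). It was run over all genes, and separately over all named probes, with 2-sided tests and Benjamini-Hochberg adjustment. The same fit was run on simulated data with normal noise drawn independently for each array. Such data do not represent repeats of the same RNA or slide position, so they say nothing on those limits. The alternatives were other background corrections, scalings, filters, probe choices, variance models and thresholds, a replicate block and leaving out each array. The normexp correction took each spot's median intensity and an offset of 50.

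The members and gene lists were chosen with earlier results of these data known. Named genes are all members, 7 set genes (Igf2, Igf2r, Insr, Irs1, Irs2, Igf2bp1, Hmga2), up to 4 called rises and 4 falls per list, and the 3 genes most like the largest member rise and fall. Lists of fibroblast and macrophage markers were examined beside 5 lists for other cell types. Some pathway genes that were tested, and counted in the list, are not reported here. Motifs were searched in RefSeq promoter windows.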

Additional observations from a re-analysis of the deposited data

How the results depend on the processing

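The precision is limited by 2 arrays per passage, possibly of the same RNA, and dim genes by a passage 7 replicate 2 array with fewer detected spots. With the planned normexp correction limma called 0 of 13847 genes (664 at an unadjusted p under 0.05), hence 0 member rises and 0 falls (2 members and 2 member probes at an unadjusted p under 0.05), 0 pathway rises and 0 falls (2 genes), and a pathway median of -0.50 relative to all genes. There Inpp5d changed by 0.26, Mycn by 0.62 and Adgre1 by 0.78, against their direction; the cause was not tested. Normexp with quantile normalisation, added after seeing the data, gave 1 member rise, 5 falls and 0 pathway rises (29 genes at an unadjusted p under 0.05). With an adjusted p under 0.01 there were 0 member rises (Igfbp2 at 0.011), 1 fall, 2 falling probes, 0 pathway rises and 2 falls. Without a minimum fold, 8 member probes fell and 3 pathway genes rose. Falling member probes numbered 9 after median scaling and 8 by the authors' value table. The pathway median was -0.105 with quantile normalisation and -0.139 without a filter on dim probes, against -0.04. With 1 array left out, member rises stayed at 1 and falls ran from 1 to 5, probe falls from 2 to 9, pathway rises from 1 to 2, pathway falls from 2 to 9 and the pathway median from -0.157 to -0.0468; a lone array is assumed to vary like the other passage's. Over all genes, 897 rose without the filter, 732 in the authors' value table, and 578 and 464 without passage 7 replicate 1 and 2, against 1384, and 682 and 688 fell without those arrays, against 1305.

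Same-numbered arrays did not deviate together (correlation -0.17), so the numbers were not taken to pair the samples. With the replicate block 1 member fell, 3 pathway genes fell, and 522 genes rose and 651 fell. The crossed block, added after seeing the data, gave 1 member rise, 4 falls, 9 pathway falls, and 1659 rises and 1407 falls of all genes.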

Other observations

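FOXO transcription factors are held inactive by AKT, and 20 of their target genes were listed. Of 19 tested, 1 rose and 2 fell, beside 9.99% rises and 9.42% falls among all tested genes. Their median change was 0.09, against 0.20 for all genes. Pink1, a kinase of mitochondrial quality control, was at 1.98 and 2.06 at passage 2 and at 3.34 and 3.40 at passage 7, a rise of 1.35 ± 0.17 (limma, adjusted p = 0.012) that was higher on both passage 7 arrays. Bcl2l11, which encodes the apoptosis inducer BIM, was at 0.31 on both passage 2 arrays and at -1.03 and -0.78 at passage 7 (-1.22 ± 0.19, adjusted p = 0.017). Cdkn1b, the CDK inhibitor p27, changed by -1.34 ± 0.19 (adjusted p = 0.015). On dropping passage 7 replicate 1 or replicate 2 the calls of Pink1 (adjusted p = 0.061 and 0.075), Bcl2l11 (0.10 and 0.071) and Cdkn1b (0.051 and 0.095) were lost, as was that of Bcl2l11 on dropping passage 2 replicate 2 (0.051). By the authors' value table Pink1 was at 0.98, short of 2-fold.

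Markers of other cell types did not all fall. Of 6 tested endothelial markers and of 4 neural markers none was called. Of 6 epithelial markers 3 fell, of 6 skeletal muscle markers 2 fell, and of 2 tested adipocyte markers 1 rose. Among all tested genes, 9.99% rose and 9.42% fell. Of the 9 fibroblast markers 2 fell, Pdgfra, a receptor of platelet-derived growth factor (-2.54 ± 0.26, adjusted p = 0.0076), and Lum, the proteoglycan lumican (-3.0 ± 0.20, adjusted p = 0.0051).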
